A study of Mus musculus with 6 samples.

Results

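The protease-activated receptors are the products of 4 mouse genes, F2r (PAR1), F2rl1 (PAR2), F2rl2 (PAR3) and F2rl3 (PAR4). They were found by gene symbol, and all 4 are among the 21718 genes of the count table. RNA was measured in 6 prostate tumours of castrated mice, in 2 groups of 3. In the F10-deleted group, recipients labelled Ptenpc-/- carried marrow from F10fl/fl; LysM-Cre+ donors, and in the F10-intact group, recipients of the same genotype carried marrow from F10fl/fl; LysM-Cre- donors. All recipients were irradiated with 900 rad at an age of 6 weeks, which the transplant followed, were castrated at 8 weeks and had the tumour removed 16 weeks later. LysM-Cre is expressed from the Lyz2 locus in macrophages and neutrophils. The F10fl/fl allele and LysM-Cre are labelled for the donor marrow only. In this model the epithelium, the endothelium, the stroma and the other cells of the recipient thus keep their F10 gene, which encodes coagulation factor X. Within each group the samples carry the numbers 1, 3 and 4.

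Protease-activated receptors are G protein-coupled receptors that carry their own ligand. A protease cuts the extracellular tail, and the new amino terminus folds back and switches the receptor on. PAR1 is a receptor for thrombin on endothelium, fibroblasts and smooth muscle. PAR2 is found on many epithelia and is cut by trypsin-like enzymes, mast cell tryptase, matriptase, and the complex of tissue factor with factors VIIa and Xa, which makes it the member most often named in connection with factor X. On mouse platelets PAR4 is the signalling thrombin receptor and PAR3 its cofactor.

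The stretch that is cut differs between the members, and for this reason it is shown. The sequences are from the coding strand of the GENCODE M21 transcripts (GRCm38), each in exon 2, 5′ to 3′. The 12 bases in lower case come before the cut, and the 18 bases in capitals code for the first residues of the new amino terminus. The place was found by a search for the known first residues of each mouse receptor in the first 120 residues of its protein, with 1 match each. The stretches lie at chr13:95604885-95604914 (minus strand) for F2r, chr13:95514241-95514270 (minus strand) for F2rl1, chr13:95700548-95700577 (plus strand) for F2rl2 and chr8:72762312-72762341 (plus strand) for F2rl3.
F2r: gtgaacccccgcTCATTCTTTCTAAGGAAT
F2rl1: agtaaaggaagaAGTCTTATTGGCAGATTA
F2rl2: ttaactattaagAGTTTTAATGGGGGTCCC
F2rl3: cctaatccacgaGGCTACCCGGGCAAATTC
In all 4 the last codon before the capitals coded for a basic residue. The new amino terminus started at residue 42 of 430 in PAR1, 39 of 399 in PAR2, 38 of 369 in PAR3 and 60 of 396 in PAR4. The whole proteins shared between 32.6% (PAR3 and PAR4) and 36.4% (PAR2 and PAR3) of their aligned residues, so no member is a near-identical copy of another.

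F2rl1 (ENSMUSG00000021678, 95511732 to 95525227, minus strand), F2r (ENSMUSG00000048376, 95601803 to 95618487, minus strand) and F2rl2 (ENSMUSG00000021675, 95696853 to 95702739, plus strand) lie together on chromosome 13 within 191008 bases. F2rl3 (ENSMUSG00000050147, 72761880 to 72763874, plus strand) lies alone on chromosome 8. F2rl2 sits inside Iqgap2, a scaffold protein gene on the opposite strand, and shares 0 exon bases with it. The other 3 members overlap no annotated gene.

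The libraries held 9237308 to 11821588 counts. F10-intact sample 4 stood apart: its counts differed from those of F10-intact samples 1 and 3 with a chi-square per degree of freedom of 77.5 and 40.5, while the other pairs of same-group samples gave 22.3 to 24.2. Of the markers of prostate and luminal epithelium, Hoxb13, Pbsn, Krt8 and Epcam were present in all 6 samples, and Msmb had at most 1 count. The 6 prostate identity markers summed to 286 to 349 CPM (counts scaled to a common library total) in F10-deleted and 477 to 702 CPM in F10-intact samples. Of the 5 tested, 3 had lower values in F10-deleted tumours at an unadjusted p under 0.05, as did 4.74% of all genes. How complete the deletion was cannot be read from F10 itself, which had 7, 4 and 9 counts in F10-deleted samples 1, 3 and 4 and 2, 6 and 17 counts in F10-intact samples 1, 3 and 4. Where a sample in bulk tissue holds less of an RNA, fewer cells of a type and less RNA per cell cannot be told apart. Whether the samples of a group came from separate animals is not said in the labels, and a p-value here reflects only how far these samples spread.

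The tumours expressed mainly PAR2, with PAR1 second, while PAR3 and PAR4 were barely detected. Scaled by exon length, F2rl1 had a level of 12.9 to 18.9 CPM per kilobase in F10-deleted and 9.36 to 15.5 in F10-intact tumours. F2r had 4.63 to 4.84 CPM per kilobase in F10-deleted and 2.14 to 5.03 in F10-intact tumours. F2rl3 averaged 0.245 ± 0.188 CPM per kilobase in F10-deleted and 0.266 ± 0.0548 in F10-intact tumours, and F2rl2 averaged 0.180 ± 0.135 in F10-deleted and 0.171 ± 0.0421 in F10-intact tumours (SD, n = 3 each). F2rl1 was above F2r in 6 of 6 samples and F2r above both others in 6 of 6, whereas F2rl2 and F2rl3 overlapped and cannot be ordered. Of the 21605 genes with a length, 82.3% had a lower mean level than F2rl1, 58.8% a lower one than F2r, 19.0% a lower one than F2rl3 and 14.5% a lower one than F2rl2.

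F2rl1, the PAR2 gene, had 336, 614 and 495 counts in F10-deleted samples 1, 3 and 4 and 278, 454 and 409 counts in F10-intact samples 1, 3 and 4. In CPM these were 35.3, 51.9 and 42.2 in the F10-deleted samples and 25.7, 38.9 and 42.4 in the F10-intact samples. The groups overlapped: F10-deleted sample 3 was the highest and F10-intact sample 1 the lowest, but F10-intact samples 3 and 4 lay above F10-deleted sample 1, and F10-intact sample 4 was level with F10-deleted sample 4. The group means were 43.1 ± 8.37 CPM in F10-deleted and 35.7 ± 8.84 CPM in F10-intact tumours (SD, n = 3 each). Among samples with the same number, F10-deleted was higher for numbers 1 and 3 and about level for number 4. The log2 fold change of F10-deleted over F10-intact was 0.28 ± 0.23 (SE, edgeR adjusted p = 0.726), a fold of 1.21 with a 95% interval of 0.838 to 1.75. Summed over the group, 1445 counts in F10-deleted and 1141 in F10-intact samples gave a ratio of 1.23 with a counting interval of 1.14 to 1.33, which is narrower than the spread between samples of a group. Single samples moved this value: leaving out F10-deleted sample 1 gave a log2 fold change of 0.43, and leaving out F10-deleted sample 3 gave 0.15. The value was 0.12 when F10-intact sample 1 was left out and 0.42 when F10-intact sample 4 was.

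F2r, the PAR1 gene, had 147, 191 and 184 counts in F10-deleted samples 1, 3 and 4 and 182, 166 and 69 counts in F10-intact samples 1, 3 and 4. Its levels were 15.4, 16.2 and 15.7 CPM in the F10-deleted samples and 16.8, 14.2 and 7.15 CPM in the F10-intact samples. The level was alike in 5 samples, between 14.2 and 16.8 CPM, and F10-intact sample 4 alone was low. The group means were 15.8 ± 0.365 CPM in F10-deleted and 12.7 ± 4.99 CPM in F10-intact tumours (SD, n = 3 each). The low sample's 95% counting interval, 5.57 to 9.05 CPM, lay below the intervals of the other 5 samples, the lowest of which began at 12.1 CPM. The log2 fold change was 0.31 ± 0.30 (SE, edgeR adjusted p = 0.776), a fold of 1.24 with a 95% interval of 0.760 to 2.01. Without F10-intact sample 4 the log2 fold change was 0.02, and without F10-intact sample 1 it was 0.58, so 1 library decides this value.

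**Figure D1:**
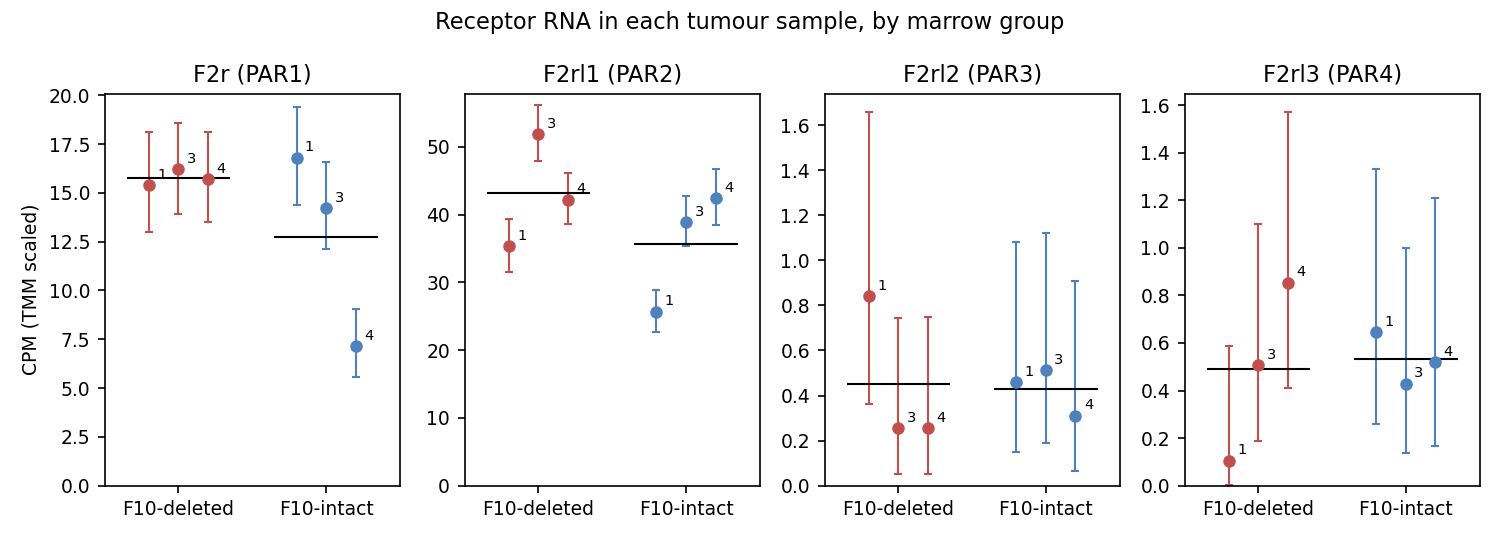
CPM of each receptor gene in each sample, with F10-deleted samples in red at the left and F10-intact samples in blue at the right of each panel. Points are samples with their number, bars are 95% counting intervals, and black lines are group means. F2rl1 overlaps between groups at 25.7 to 51.9 CPM, F2r is low in F10-intact sample 4 alone at 7.15 CPM, and F2rl2 and F2rl3 stay below 1 CPM with intervals that overlap throughout.

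F2rl2, the PAR3 gene, had 8, 3 and 3 counts in F10-deleted samples 1, 3 and 4 and 5, 6 and 3 counts in F10-intact samples 1, 3 and 4. The group sums were equal, 14 counts in F10-deleted and 14 in F10-intact tumours, and the ratio after scaling to library size was 0.972 with a counting interval of 0.430 to 2.20. Iqgap2, the gene around it, had 461, 758 and 719 counts in the F10-deleted samples and 478, 990 and 1175 in the F10-intact samples. Since no source used here states whether the counting used strand, unspliced Iqgap2 reads and F2rl2 reads cannot be told apart. F2rl3, the PAR4 gene, had 1, 6 and 10 counts in F10-deleted samples 1, 3 and 4 and 7, 5 and 5 counts in F10-intact samples 1, 3 and 4. Its group sums were also equal, 17 counts each, with a scaled ratio of 0.972 and a counting interval of 0.466 to 2.03. Neither gene passed the filter on low counts. In the fit without a filter the log2 fold changes were 0.04 ± 0.71 for F2rl2 (fold interval 0.337 to 3.12, edgeR adjusted p = 1.00) and -0.07 ± 0.70 for F2rl3 (fold interval 0.317 to 2.87, edgeR adjusted p = 0.993). Differences within these intervals were not detectable at this depth. With 1 sample left out, the sign of both changed: leaving out F10-deleted sample 1 put F2rl2 at -0.70 and F2rl3 at 0.39. F2rl2 was at -0.16 when F10-intact sample 4 was left out, and F2rl3 at -0.72 when F10-deleted sample 4 was and at 0.10 when F10-intact sample 1 was.

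Of the 4 receptor genes, 2 passed the filter, and edgeR called 0 of them at an adjusted p under 0.05. The same test called 0.0439% of the 15963 genes tested, or 7 genes, so a count over so few members says little. At an unadjusted p under 0.05, 0 of the members passed. That looser threshold held for 6.15% of all genes with higher and 4.74% with lower values in F10-deleted tumours. DESeq2 called neither F2r nor F2rl1 and gave F2rl2 and F2rl3 no adjusted p, against 2.89% of the genes it tested. With the replicate number as a block, edgeR called 0 of the 4 members and 0.0125% of all genes.

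**Figure D2:**
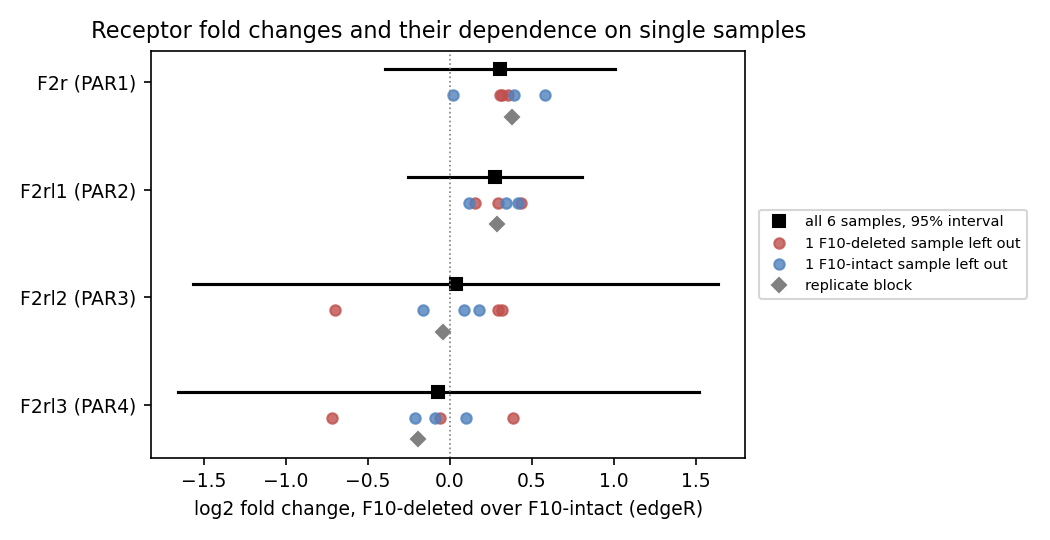
Log2 fold change of F10-deleted over F10-intact for each receptor gene, on the horizontal axis. Black squares and lines are the edgeR estimate with its 95% interval over 6 samples, circles are estimates with 1 F10-deleted (red) or 1 F10-intact (blue) sample left out, and grey diamonds are the fit with the replicate number as a block. Every interval spans 0, and the value for F2r runs from 0.02 to 0.58 depending on which F10-intact sample is left out.

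The shares of F2rl1 and F2r in the family were spread over a wider range in F10-intact than in F10-deleted samples, and those of F2rl2 and F2rl3 over a narrower one. F2rl1 made up 72.0%, 78.5% and 74.6% of the summed length-scaled receptor level in F10-deleted samples 1, 3 and 4, against 62.8%, 75.2% and 86.0% in F10-intact samples 1, 3 and 4. F2r made up 25.9%, 20.1% and 22.8% in the F10-deleted samples and 33.8%, 22.6% and 11.9% in the F10-intact samples. The 3 F10-deleted samples thus lay between the extremes of the F10-intact group for both genes. The mean share of F2rl1 was 75.0 ± 3.27% in F10-deleted and 74.6 ± 11.6% in F10-intact tumours (SD, n = 3 each), a difference of 0.375 percentage points (exact two-sided permutation p = 1). For F2r the mean share was 22.9 ± 2.91% in F10-deleted and 22.8 ± 10.9% in F10-intact tumours, a difference of 0.145 percentage points (exact two-sided permutation p = 0.9). With 3 samples in each group the smallest p this test can give is 0.1. Without F10-intact sample 4 the differences were 6.03 percentage points for F2rl1 and -5.28 for F2r, and without F10-intact sample 1 they were -5.55 for F2rl1 and 5.66 for F2r. F2rl1 exceeded F2r per length by a ratio of 2.78, 3.91 and 3.27 in F10-deleted samples 1, 3 and 4 and of 1.86, 3.33 and 7.21 in F10-intact samples 1, 3 and 4. F2rl2 made up 0.420% to 1.88% in F10-deleted and 0.691% to 1.24% in F10-intact samples, and F2rl3 0.294% to 2.07% in F10-deleted and 1.14% to 2.17% in F10-intact samples. The summed level of the family was 17.9, 24.1 and 20.6 CPM per kilobase in the F10-deleted samples and 14.9, 18.9 and 18.0 in the F10-intact samples, and the groups overlapped (exact two-sided permutation p = 0.3).

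**Figure D3:**
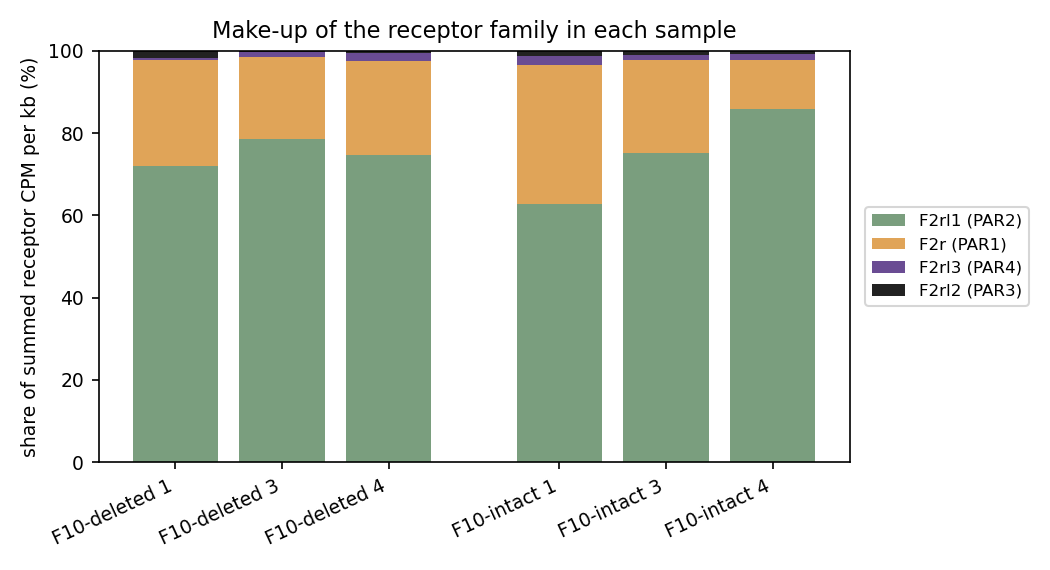
Share of each receptor gene in the summed CPM per kilobase of the family, in percent, as stacked bars for F10-deleted samples at the left and F10-intact samples at the right. F2rl1 holds 72.0% to 78.5% in F10-deleted samples and 62.8% to 86.0% in F10-intact samples, with most of the rest taken by F2r.

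Markers of several cell types varied across the same samples as the receptors. F10-intact sample 4, the low sample for F2r, was also the lowest for the summed endothelial markers, at 43.6 CPM, where the F10-deleted samples had 76.9 to 109 CPM and the other F10-intact samples 63.5 and 98.9 CPM. The smooth muscle and pericyte markers summed to 861 CPM in that sample, with 1330 to 2460 CPM in the F10-deleted samples and 2110 and 3140 CPM in the other F10-intact samples. The basal and squamous, urothelial, mast cell, skeletal muscle and adipocyte sums were lowest in that sample too. The prostate identity, luminal, macrophage and neutrophil sums were highest there. Fibroblast markers summed to 1570 to 1690 CPM in F10-deleted and 1380 to 1610 CPM in F10-intact samples, and most of that sum was the proteoglycan Dcn. All 10 endothelial, 7 smooth muscle and 10 fibroblast markers were measured and none was at 0 throughout. The endothelial list had 9 of 10 members above 0, a median log2 fold change of 0.67 and 4 members with higher values at an unadjusted p under 0.05, a threshold passed with higher values by 6.15% of all genes. The fibroblast list had 8 of 10 above 0, a median of 0.48 and 3 members with higher values at that threshold, the collagens Col1a1, Col1a2 and Col3a1, which DESeq2 also called. Thy1, Pdgfrb and Pdgfra of this list were, like F2r, lowest in F10-intact sample 4. Col1a1 and Col1a2 were lowest there too but about level with F10-intact sample 3. They had 30.6 and 68.8 CPM in F10-intact sample 4 and 31.1 and 69.4 CPM in F10-intact sample 3. Dcn was highest in F10-intact sample 4, at 1170 CPM, and Col3a1, Lum, Dpt and Fap were not lowest there. The smooth muscle list had 4 of 7 above 0, a median of 0.08 and 0 members at that threshold, and edgeR and DESeq2 called 0 of them. Their part in the F2r level was not tested.

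F2rl1 was highest in F10-deleted sample 3, in which the 5 urothelial markers summed to 1520 CPM, against 325 and 355 CPM in the other F10-deleted samples. They summed to 384, 424 and 150 CPM in F10-intact samples 1, 3 and 4. The other samples did not follow this order: F2rl1 was lowest in F10-intact sample 1, at 25.7 CPM. In F10-intact sample 4, lowest for the urothelial markers, F2rl1 was at 42.4 CPM. Luminal epithelial markers differed little, with 6240 to 7140 CPM in F10-deleted and 6830 to 7390 CPM in F10-intact samples. The 8 basal and squamous markers summed to 919 to 1330 CPM in F10-deleted and 369 to 964 CPM in F10-intact samples, and 7 of the 8 had higher values at an unadjusted p under 0.05, where 6.15% of all genes did. Macrophage markers summed to 366 to 474 CPM in F10-deleted and 439 to 494 CPM in F10-intact samples, and neutrophil markers to 90.0 to 121 CPM in F10-deleted and 113 to 239 CPM in F10-intact samples. Skeletal muscle markers, of a tissue outside the gland, summed to 675 to 1690 CPM in F10-deleted and 12.4 to 104 CPM in F10-intact samples. Adipocyte markers summed to 11.3 to 123 CPM in F10-deleted and 2.38 to 27.1 CPM in F10-intact samples, with 5 of 5 tested above 0, a median log2 fold change of 2.88 and 3 called by DESeq2. The part of these differences in the F2rl1 level was not tested. Of the 13 platelet and megakaryocyte markers 7 were measured, and they summed to 9.73 to 28.4 CPM in F10-deleted and 12.8 to 34.2 CPM in F10-intact samples.

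**Figure D4:**
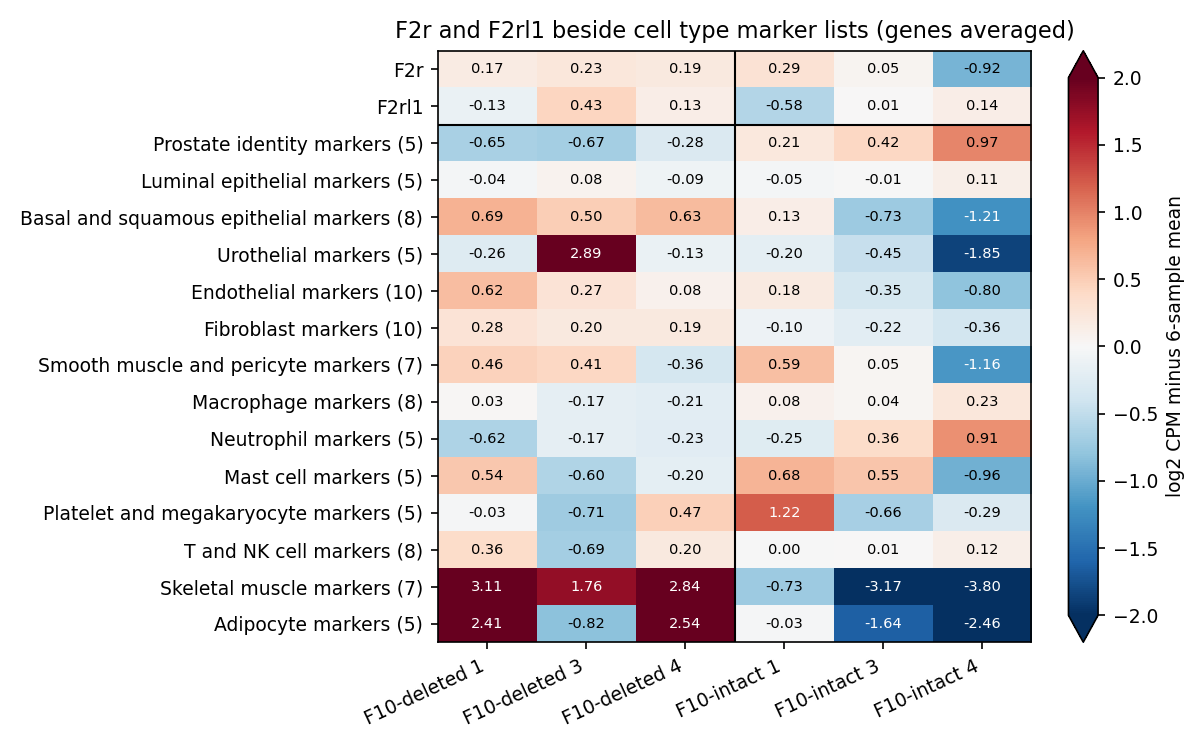
Log2 CPM minus the mean over 6 samples for F2r and F2rl1 (above the line) and for cell type marker lists (below it, averaged over the number of genes in brackets). Columns are F10-deleted samples at the left and F10-intact samples at the right, and colours are capped at the ends of the bar. F10-intact sample 4 is lowest for F2r, at -0.92, and for the endothelial and smooth muscle lists, at -0.80 and -1.16, while F2rl1 is at 0.14 there. The fibroblast, basal and squamous, urothelial, mast cell, skeletal muscle and adipocyte lists are lowest there too. The prostate identity, luminal, macrophage and neutrophil lists are highest there.

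The genes with the most similar profile over the 6 samples were found by the root mean square difference of mean-centred log2 CPM, among genes tested with a mean of at least 1 CPM. For F2r they were Glis2 (0.0531), Bhlhb9 (0.0639) and Fam118a (0.0678), where the median over 15572 genes was 0.504. For F2rl1 they were Fbxo34 (0.0542), Lpgat1 (0.0651) and Aste1 (0.0677), with a median of 0.416. The closest to F2rl2 was 1700123M08Rik (0.0658), then Capn6 (0.0957) and Gtf2h4 (0.157), and the closest to F2rl3 were Lilra6 (0.154), Spc25 (0.191) and Cyp2r1 (0.214), but the profiles of F2rl2 and F2rl3 rest on 1 to 10 counts per sample.

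Of 25 listed genes for proteases that cut these receptors, with tissue factor among them, 21 were measured and 15 passed the filter. F2, the thrombin gene, had 0, 2 and 0 counts in F10-deleted and 1, 1 and 0 counts in F10-intact samples, and F7, the factor VII gene, had 7, 1 and 7 counts in F10-deleted and 2, 4 and 8 counts in F10-intact samples. Thrombin and factors VII and X are made chiefly by the liver and reach tissues in blood, so RNA in the tumour does not measure their presence. F3, tissue factor, the membrane cofactor that starts coagulation, stood at 37.7, 35.9 and 48.7 CPM in the F10-deleted samples and 42.8, 43.2 and 20.5 CPM in the F10-intact samples. Like F2r it was low in F10-intact sample 4 alone, and its log2 fold change was 0.20 ± 0.29 (SE, edgeR adjusted p = 0.868).

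Among the 15 genes tested of this list, 3 with higher and 1 with lower values passed an unadjusted p under 0.05. Over all genes, 6.15% with higher and 4.74% with lower values did. Without F10-deleted sample 3, F10-intact sample 3 or F10-intact sample 4, 1 gene had higher and 1 lower values at that threshold. In those fits 4.53%, 5.19% and 5.52% of all genes had higher values. In the main fit edgeR called 0 of the list after adjustment. Prss8, prostasin, a membrane-anchored serine protease of epithelia that acts together with matriptase, had 118, 109.7 and 81.4 CPM in the F10-deleted samples and 149, 149 and 211 CPM in the F10-intact samples. The groups did not overlap, which held with lower values for 7.67% and with higher values for 8.99% of all genes tested. Its log2 fold change was -0.72 ± 0.20 (SE, edgeR adjusted p = 0.255). Gzma, the cytotoxic lymphocyte protease granzyme A, had 9.66, 2.54 and 2.47 CPM in the F10-deleted samples and 0.831, 1.20 and 1.35 CPM in the F10-intact samples. Its level in F10-deleted sample 1 was far above the others, and its log2 fold change was 2.10 ± 0.63 (SE, edgeR adjusted p = 0.284). T and NK cell markers summed to 34.0 to 80.9 CPM in F10-deleted and 55.8 to 62.2 CPM in F10-intact samples, the highest in F10-deleted sample 1, and their part in the Gzma level was not tested. DESeq2 called Gzma higher (adjusted p = 0.0409). It was the only protease of the list that DESeq2 called, against 2.89% of the genes DESeq2 tested. Prss22, a tryptase-like enzyme, was at 0.98 ± 0.39 and Plau, urokinase, at 0.61 ± 0.25 (SE, edgeR adjusted p = 0.423 and 0.426), both with overlapping groups. The list had a median log2 fold change of 0.01, beside -0.02 over all genes tested.

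The cofactors and inhibitors of these proteases included 12 measured genes, of which 9 passed the filter. Spint2, a Kunitz inhibitor of matriptase and prostasin at the epithelial surface, had 889, 789 and 905 CPM in the F10-deleted samples and 1365, 1116 and 1739 CPM in the F10-intact samples. The groups did not overlap, and the log2 fold change was -0.71 ± 0.20 (SE, edgeR adjusted p = 0.252). DESeq2 called Spint2 lower (adjusted p = 0.0309), and 0 other members of the list, against 2.89% of the genes it tested. Its relative Spint1 was at a log2 fold change of 0.38 ± 0.21 and Procr, the endothelial protein C receptor, at 0.64 ± 0.42 (SE, edgeR adjusted p = 0.582 and 0.641). The list's median was -0.25, beside -0.02 over all genes tested. With 1 sample left out it ran from -0.305 to -0.0101, and the filter of at least 1 CPM in 3 samples gave -0.019.

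Among the proteins that carry the receptor signal inward, 1 of 25 genes passed an unadjusted p under 0.05, with lower values, as did 4.74% of all genes. With the replicate block 1 had higher and 3 lower values at that threshold (Itpr3 higher, and Gnaq, Rock1 and Prkca lower), where 7.64% and 6.76% of all genes did, and 0 were called by edgeR after adjustment. PAR1 and PAR2 couple to G proteins of the Gq, G12/13 and Gi families. Of 25 transducer genes, all tested, 13 were above and 12 below 0 with a median log2 fold change of 0.03. The gene that passed, with lower values in F10-deleted tumours, was Prkca, a protein kinase C activated downstream of Gq, and edgeR and DESeq2 called 0 of the 25. Prkca had 119.7, 125 and 136 CPM in the F10-deleted samples and 126, 258 and 488 CPM in the F10-intact samples (log2 fold change -1.20 ± 0.44, SE, edgeR adjusted p = 0.378). F10-intact sample 1 was at the level of the F10-deleted samples, and F10-intact samples 3 and 4 were higher. Gnaq, the alpha subunit of Gq, was at -0.32 ± 0.16 and Itpr2, a calcium channel opened by inositol trisphosphate, at -0.24 ± 0.12 (SE, edgeR adjusted p = 0.533 and 0.537).

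Of 9 desensitisation genes, all tested, 3 were above and 6 below 0, with a median of -0.09, and edgeR and DESeq2 called 0. At an unadjusted p under 0.05, 1 had lower values (Rgs4), as did 4.74% of all genes. With the replicate block 2 did (Rgs4 and Arrb2), where 6.76% of all genes did. With limma-voom or without F10-intact sample 3, 0 had lower values at that threshold. Rgs4, which speeds the shut-off of Gq and Gi, had 13.7, 15.6 and 14.5 CPM in the F10-deleted samples and 14.7, 36.8 and 44.1 CPM in the F10-intact samples (log2 fold change -1.12 ± 0.37, SE, edgeR adjusted p = 0.330). As with Prkca, F10-intact sample 1 lay among the F10-deleted samples. Arrb2, the beta-arrestin that scaffolds PAR2 after it is switched on, was at -0.30 ± 0.14, and Rgs16, another shut-off gene, at 0.84 ± 0.43 (SE, edgeR adjusted p = 0.500 and 0.537).

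Genes known to respond to PAR agonists in cultured cells had the largest median of these 5 lists. All 23 were measured and 21 tested, of which 16 were above and 5 below 0 with a median log2 fold change of 0.35. At an unadjusted p under 0.05, 6 of 21 had higher values, among them Ccn1, Ccn2, Vcam1, Plaur and Areg, and 1 a lower value (Cxcl1), while edgeR called 0 at an adjusted p under 0.05. All 6 were without overlap between groups, and with 2 others that did not pass made 8 of 21. Over all genes tested, 6.15% had higher values at that threshold and 8.99% higher values without overlap. With the replicate block 9 of 21 had higher and 1 lower values at an unadjusted p under 0.05, where 7.64% and 6.76% of all genes did. Many other stimuli, growth factors and mechanical load among them, induce the same genes.

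Ccn1, a matricellular protein, had 68.8, 72.2 and 71.1 CPM in the F10-deleted samples and 38.0, 44.8 and 45.5 CPM in the F10-intact samples (log2 fold change 0.72 ± 0.13, SE, edgeR adjusted p = 0.103). Ccn2, connective tissue growth factor, had 66.7, 55.0 and 72.3 CPM in the F10-deleted samples and 29.3, 33.7 and 15.9 CPM in the F10-intact samples (log2 fold change 1.30 ± 0.27, SE, edgeR adjusted p = 0.144). Both were thus higher in every F10-deleted than in every F10-intact sample, by more than the spread within groups, without passing the adjustment over all genes in edgeR. DESeq2 called both higher (adjusted p = 0.00131 for Ccn1 and 0.000887 for Ccn2) and also Areg, an EGF receptor ligand (adjusted p = 0.0264). Of all genes it tested, DESeq2 called 2.89%. Areg, Vcam1, Plaur, Cxcl1, Plau, Itpr3, Rock1 and the single cell type markers are named here after their values were seen. With 1 sample left out, 5 to 11 of the 21 responsive genes had higher values at an unadjusted p under 0.05. The number was 5 without F10-deleted sample 4 or F10-intact sample 1, where 4.96% and 7.28% of all genes did. It was 11, with 0 lower, without F10-intact sample 4, where 5.52% of all genes had higher and 3.79% lower values. The skeletal muscle and prostate identity sums given above did not overlap between groups either. At an unadjusted p under 0.05, 7 of 8 basal and squamous (median 0.96), 4 of 10 endothelial, 3 of 10 fibroblast and 3 of 5 adipocyte markers also had higher values. Over all genes 6.15% did, and the part of these lists in the responsive genes was not tested.

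**Figure D5:**
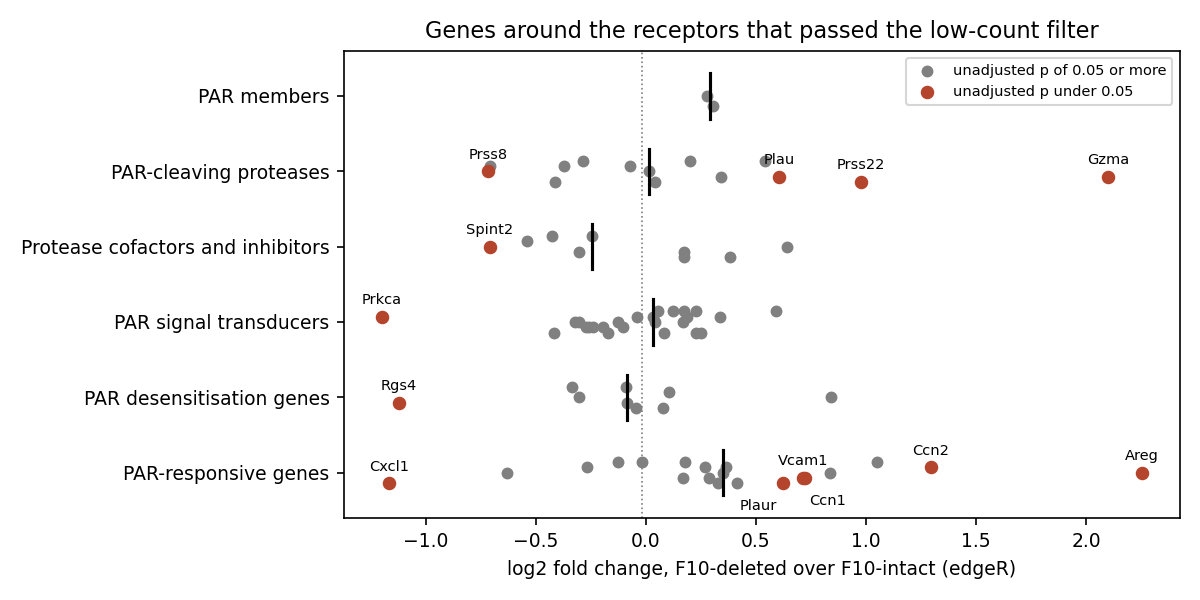
Log2 fold change of F10-deleted over F10-intact for the genes of each list that passed the low-count filter. Red points had an unadjusted edgeR p under 0.05, short black lines are list medians over all genes tested, 1 responsive gene is not drawn, and the dotted line is the median over all genes tested (-0.02). The receptors lie near 0.3, the transducers around 0, and most responsive genes to the right of 0, with Cxcl1 to the left.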

How the data were processed

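The deposited table holds raw read counts per Ensembl gene for 6 samples. The tools named are STAR 2.7.10a and DESeq2, and the build GRCm38, per the submitters' processing notes. How reads were assigned to genes (program, strand setting, annotation) is not given in the sources used here. Per the labels' protocols, the libraries were stranded, from poly-A RNA, and read from 1 end. Symbols, exon lengths and coordinates were taken from GENCODE M21 (GRCm38), which matched 21605 of 21718 genes.

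The main test was the edgeR 4.0.16 quasi-likelihood test in R 4.3.3 (robust, TMM factors, filterByExpr with a minimum count of 10), with Benjamini-Hochberg adjustment over the 15963 genes tested. For genes below the filter the same fit without a filter was used. CPM values use the TMM factors of the genes tested. A positive log2 fold change means higher in F10-deleted. Shares were compared with exact permutation tests over samples. Counting intervals are exact Poisson intervals at 95% and cover counting error only. The edgeR, DESeq2 and limma-voom fits, but not the permutation tests, were also run on simulated counts with known fold changes. The simulated samples were independent, with no outlying library and no effect shared by replicate number. They therefore cannot show how the p-values behave in these data.

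The members and gene lists were chosen with earlier results of these data known. The genes named are the 4 members, the coagulation genes F10, F2, F7 and F3, genes overlapping a member, the 3 with the smallest p of each list, and the 3 with the closest profile to each member. A gene that this rule names is not reported here. Both groups carry the numbers 1, 3 and 4. Deviations from the group mean correlated between same-numbered samples (r across genes of 0.35, 0.135 and 0.181, all above 0.1), and edgeR was therefore also run with a replicate block. No such correlation was computed between samples with different numbers, so these values cannot show pairing. The labels name no shared animal, litter or day. The alternatives were DESeq2 1.42.0, limma-voom (limma 3.58.1), 3 other scalings (upper quartile, RLE, and TMM without the 50 most abundant genes), other filters, edgeR without robust fitting, a looser threshold of 0.1, other length scalings, and each sample left out in turn.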

Additional observations from a re-analysis of the deposited data

How the results depend on the processing

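Under every scaling, filter, fit and left-out sample tried, 0 receptor genes were called (DESeq2 gave F2rl2 and F2rl3 no adjusted p), and the log2 fold changes of F2r and F2rl1 stayed above 0. With 1 sample left out they ranged from 0.02 to 0.58 for F2r and from 0.12 to 0.43 for F2rl1. For F2rl2 that range was -0.70 to 0.32 and for F2rl3 -0.72 to 0.39, and the replicate block gave -0.040 for F2rl2 and -0.20 for F2rl3. Limma-voom and the filter of at least 1 CPM in 3 samples left both out. The difference in share ranged from -5.28 to 5.66 percentage points for F2r and from -5.55 to 6.03 for F2rl1 with 1 sample left out.

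Among all genes, 7 were called, and 7 also under each of 3 other scalings. The number was 10 with no filter, 493 with DESeq2, 2 with limma-voom, 2 with the 1 CPM filter, 3 with a non-robust fit, 2 with the replicate block, 85 at an adjusted p under 0.1, and 0 to 72 with 1 sample left out (0 without F10-deleted sample 4 or F10-intact sample 3, 1 without F10-deleted sample 1, 18 without F10-deleted sample 3 and 72 without F10-intact sample 1). Of the 15, 9, 25, 9 and 21 genes tested in the pathway lists, 14 passed an unadjusted p under 0.05. Over all genes, 6.15% had higher and 4.74% lower values at that threshold. With the replicate block 22 of the list genes passed, where 7.64% of all genes had higher and 6.76% lower values. The block changed no call of a receptor. The causes were not tested. Depth limits F2rl2 and F2rl3, at 1 to 10 counts per sample.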
